A study of Saccharomyces cerevisiae with 10 samples.

Results

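The 33 genes described here are 32 genes of proteasome subunits and RPN4, the gene of the transcription factor that drives them. They were found by gene symbol among 6377 measured features and had 2 spots each per array. By role, 7 belong to the alpha ring and 7 to the beta ring of the core particle, 6 to the ATPase ring, 8 to the lid and 4 to the non-ATPase part of the base. Budding yeast strains with altered subunits of NuA4, a histone acetyltransferase, were profiled on 10 two-colour arrays, 2 per strain. Strain RNA was set against a common reference pool, in Cy3 for replicate a and in Cy5 for replicate b.

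In Epl1 1:380 and Epl1 1:485 the subunit Epl1 was cut after the residue in the name and carried a FLAG tag, and their control was tagged Epl1, with the same tag on uncut Epl1. In the eaf1 deletion the gene of the scaffold subunit Eaf1 was removed, and it was set against Eaf1 1:982, which carried an HA tag. The labels name HA in the deletion's title but not in its genotype. They call Eaf1 1:982 a truncation, although the EAF1 gene has 982 codons in the RefSeq table, so whether it is full length is not settled. All strains were grown in plates to mid-log phase, per the study's design text. No label says that replicates came from separate cultures, so every p-value reflects array-to-array spread alone, and that spread may be technical. The strain RNA of Epl1 1:380 replicate b has another isolation protocol in its label than that of the other 9 arrays.

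The proteasome is the machine that breaks down proteins marked with ubiquitin. Its core particle is a barrel of alpha and beta rings with the cutting sites inside, and the regulatory particle, built of a base with an ATPase ring and of a lid, takes up and unfolds substrates. In yeast, Rpn4 binds the promoters of most subunit genes, and the proteasome itself degrades Rpn4, which links the expression of these genes to proteasome activity.

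Values are the deposited log2 ratios turned to strain over pool, and a change is the difference of 2 strain means on that log2 scale, with its SE. A gene passed at a Benjamini-Hochberg adjusted p under 0.05 in limma over all features. Member spots were bright, with median signals per array of 2712 to 3819 in Cy5 and 1344 to 2139 in Cy3. All gene spots had medians of 674 to 1086 in Cy5 and 334.1 to 585.5 in Cy3. Each of the 66 member spots lay above background in both channels on every array, and none exceeded the limit of 32768 that the authors applied for saturation. The 2 spots of a member differed by a median of 0.04. EAF1 fell by 2.71 in the eaf1 deletion against Eaf1 1:982 (adjusted p = 7.2e-07 in limma), with arrays at −2.00 and −2.14 in the deletion and 0.74 and 0.54 in Eaf1 1:982. EPL1 rose by 0.38 in Epl1 1:380 and by 0.50 in Epl1 1:485 against tagged Epl1. It also rose by 0.51 in the deletion against Eaf1 1:982, and was 0.62 higher in Eaf1 1:982 than in tagged Epl1 (adjusted p = 0.018).

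Relative to the pool, most proteasome genes lay slightly below 0 in every strain, the controls included. The median member stood at −0.14 and −0.17 on the Epl1 1:380 arrays and at −0.16 and −0.14 on the Epl1 1:485 arrays, against −0.11 on both arrays of tagged Epl1. In the eaf1 deletion it stood at −0.20 and −0.08, against −0.08 and −0.10 in Eaf1 1:982. On each array, 23 to 30 of the 33 members were below 0, where the median of all features was −0.005 to 0.02. Some members lay the other way, such as RPN2 and RPN9, whose means were above 0 in every strain. The replicates of the deletion agreed least on these genes. There, the median difference between replicates was 0.16 over the members and 0.10 over all features, whereas over the members it was 0.05 to 0.08 in the other strains.

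**Figure D1:**
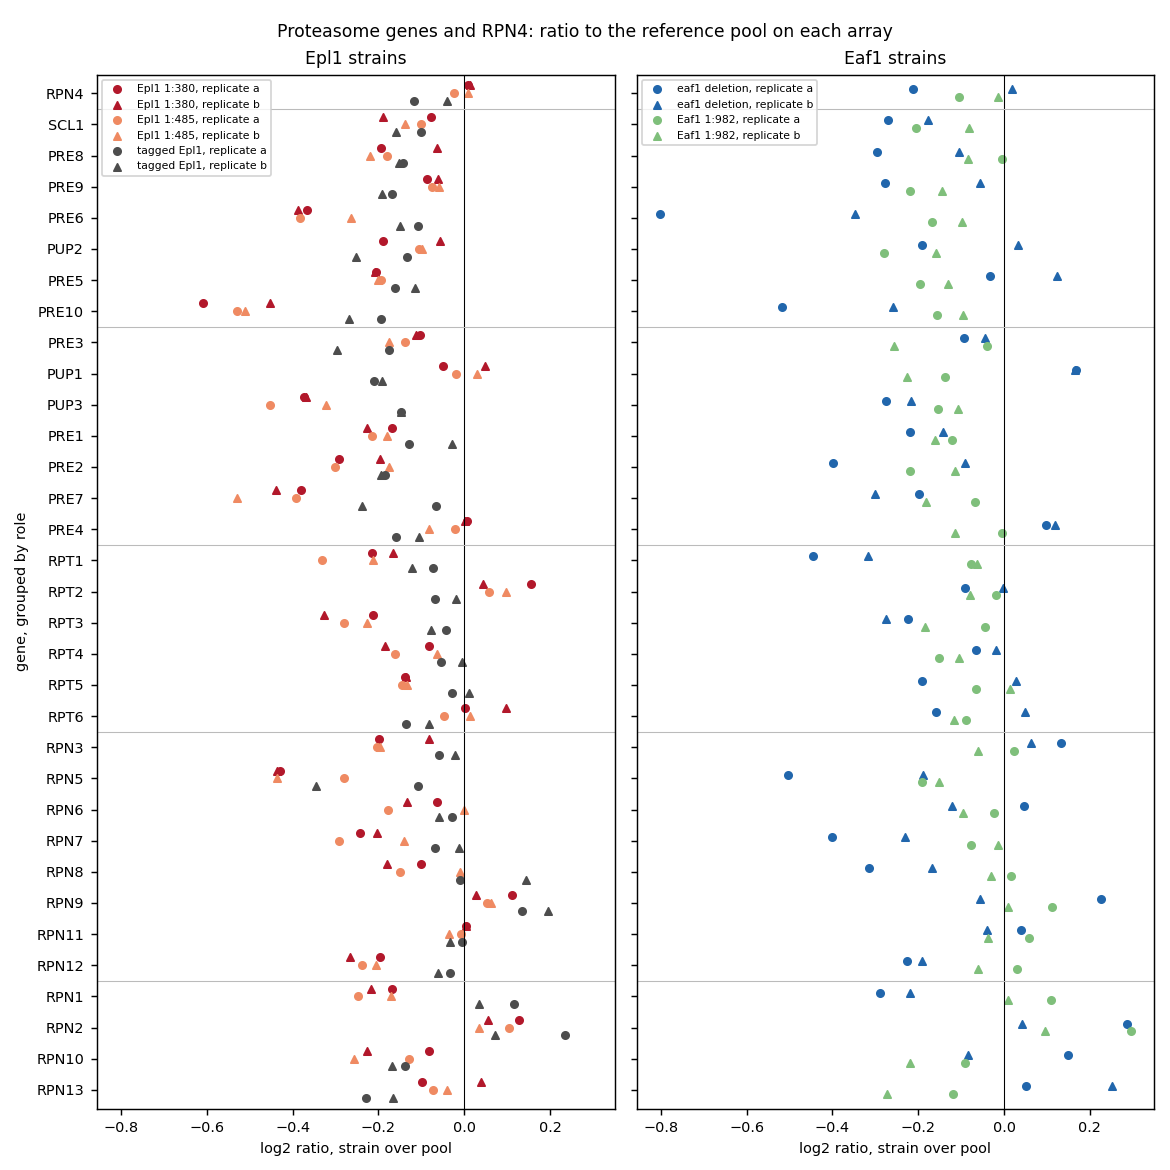
Log2 ratio of each strain to the reference pool (horizontal axis) for RPN4 and 32 proteasome genes (rows, grouped by role), with 1 point per array. Epl1 strains are on the left and Eaf1 strains on the right. Of 330 points, 310 lie between −0.40 and 0.20, and PRE6 on 1 deletion array lies lowest, at −0.80.

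RPN4 itself passed in no comparison. Its ratios were 0.01 on both arrays of Epl1 1:380 and −0.02 and 0.01 in Epl1 1:485, against −0.12 and −0.04 in tagged Epl1. The arrays of both truncations lay above those of the control, by an average of 0.09 ± 0.08 (SE) for Epl1 1:380 (adjusted p = 0.38) and 0.07 ± 0.08 for Epl1 1:485 (adjusted p = 0.50). In the eaf1 deletion its ratios were −0.21 and 0.02, against −0.10 and −0.01 in Eaf1 1:982, so the arrays overlapped, and the change was −0.04 ± 0.08 (adjusted p = 0.75). From high to low, the strain means ran from Epl1 1:380 through Epl1 1:485, Eaf1 1:982 and tagged Epl1 to the deletion. Neighbouring means differed by 0.02, 0.05, 0.02 and 0.02, each less than the SE of 0.08. The 95% intervals of the change ran from −0.08 to 0.26 in Epl1 1:380, from −0.10 to 0.24 in Epl1 1:485 and from −0.21 to 0.14 in the deletion, all inside 1.7-fold, which is 0.77 on the log2 scale. The signs of these differences turned under other scalings of the arrays. With median centring of the scanner intensities they were −0.03 in Epl1 1:380 and −0.01 in Epl1 1:485, beside 0.03 over all features in both. With centring on added RNA the deletion stood at 0.10, below the median of 0.27 over all features.

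In Epl1 1:380 against tagged Epl1, 6 of the 33 members fell and 1 rose, by 1.23-fold at most. These 7 made up 21.2% of the members, while 40.8% of all features passed, 21.7% higher and 19.1% lower. PRE10, an alpha ring subunit, PRE7 and PUP3 of the beta ring, the ATPase RPT3, the lid subunit RPN12 and the base scaffold RPN1 fell, and PUP1, the trypsin-like catalytic subunit, rose. In Epl1 1:485 against the same control arrays, PRE10, PRE7, PUP3, RPT3, RPN12 and RPN1 fell and PUP1 rose, again 21.2% of the members, beside 37% of all features, 19.4% higher and 17.6% lower. The 2 comparisons share their control, so this likeness is no second observation.

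The changes of the members were small beside those of the whole array. No member passed with a fold over 1.7, as 3.81% of features did in Epl1 1:380 and 2.92% in Epl1 1:485. The members' changes ran from −0.30 to 0.20 in Epl1 1:380 and from −0.31 to 0.21 in Epl1 1:485. Their medians were −0.07 and −0.08, beside 0.01 over all features in both. A change larger than 0.25 in either direction was seen for 3 members (9.09%) in each truncation, against 33.4% of all features in Epl1 1:380 and 30.8% in Epl1 1:485. No member's 95% interval reached 1.7-fold, as that of 551 features did in Epl1 1:380 and that of 458 in Epl1 1:485. Both arrays of Epl1 1:380 lay above both of tagged Epl1 for 9 members and below both for 19. In Epl1 1:485 this held for 9 and 17. Arrays without overlap were thus seen for 84.8% and 78.8% of the members, beside 73.7% and 72.9% of all features.

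**Figure D2:**
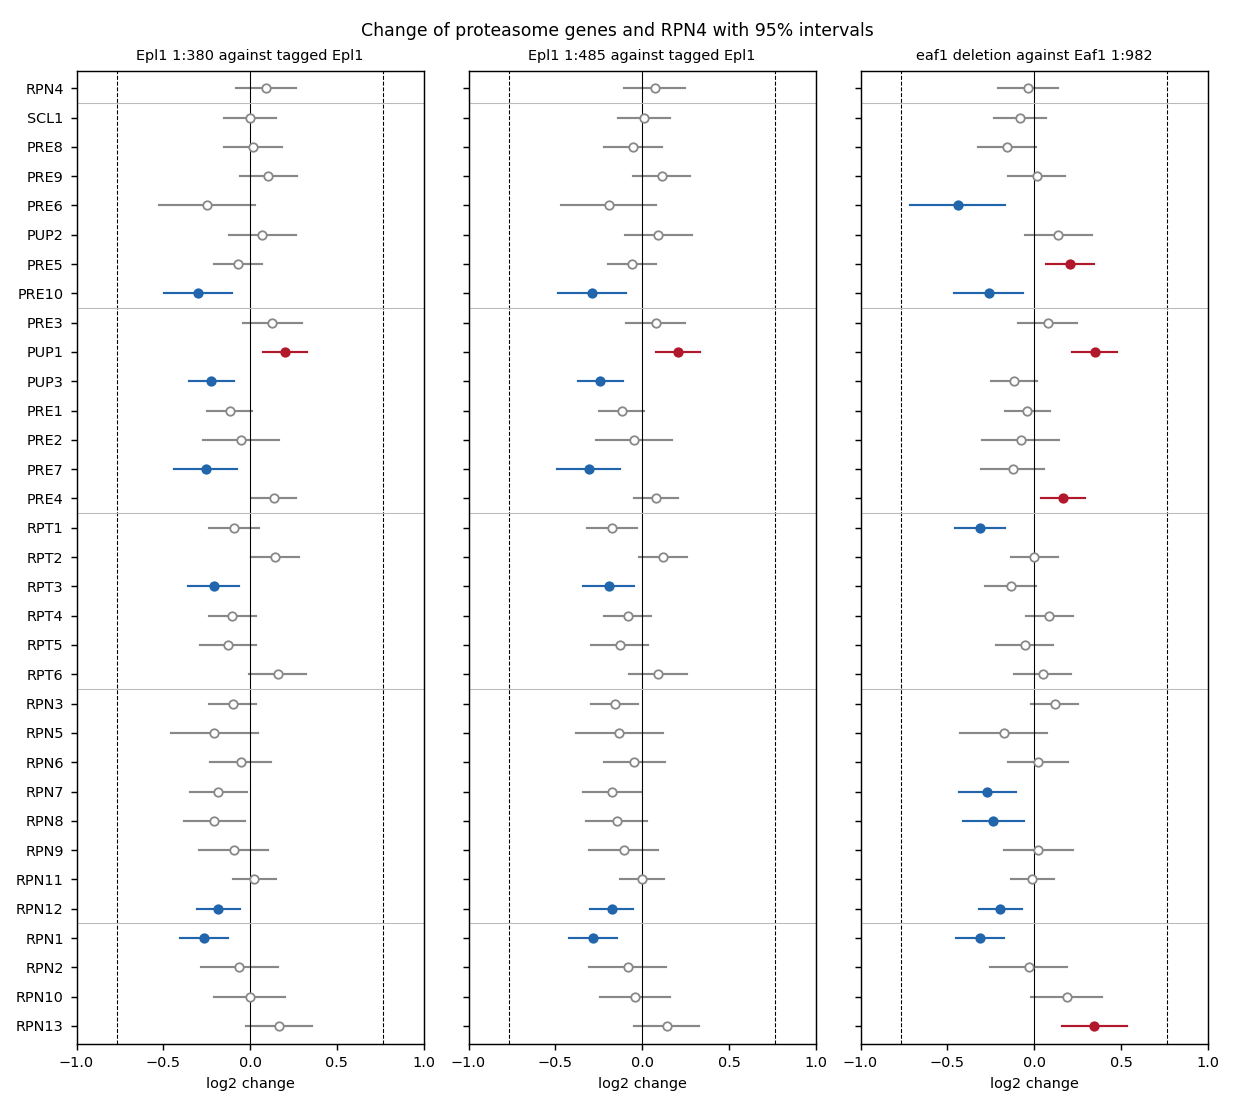
Change (log2, horizontal axis) of RPN4 and 32 proteasome genes (rows, grouped by role) in 3 comparisons, with 95% confidence intervals from limma. Filled points passed, red for higher and blue for lower, and open points did not. Dashed lines mark 1.7-fold, which no interval reaches.

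The number that passed depended on single arrays and on the values used. Leaving out tagged Epl1 replicate a left 1 member in Epl1 1:380, which was none of the 7, and 0 in Epl1 1:485, beside 29.5% and 25.6% of all features. In Epl1 1:380, 2 members remained called without tagged Epl1 replicate b (27.4% of all features) or without Epl1 1:380 replicate b (32.7%), and 4 without its replicate a (29.8%). There, 11 passed without replicate a or without replicate b of the deletion (44.5% of all features each). In Epl1 1:485, 2 members remained called without tagged Epl1 replicate b (23.6% of all features), without the strain's replicate a (26.3%) or without its replicate b (25.8%). From the scanner intensities with normexp and loess, 0 members passed in either truncation, where 18.2% of all features passed in Epl1 1:380 and 15.4% in Epl1 1:485. With the replicate letter, and so the dye orientation, as a block in that fit, 7 and 8 members passed (21.2% and 24.2%), beside 46.5% and 44.3% of all features. Over the 4 scanner settings, 4 of the 7 called members kept their sign in Epl1 1:380, not PUP1, PUP3 or RPT3, and 6 of 7 in Epl1 1:485, not PUP1. PUP3 and RPT3 turned in Epl1 1:380 only on added RNA, where the median of all features was 0.29. How many of all called features kept their sign was not counted.

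RPN1, the scaffold of the base to which ubiquitin shuttles bind, had the smallest adjusted p of the members in both truncations. Its ratios were −0.17 and −0.22 in Epl1 1:380 and −0.25 and −0.17 in Epl1 1:485, against 0.12 and 0.03 in tagged Epl1. The arrays did not overlap, and the changes were −0.27 ± 0.06 (adjusted p = 0.0072 in limma) and −0.28 ± 0.06 (adjusted p = 0.0061). In the eaf1 deletion RPN1 stood at −0.29 and −0.22, against 0.11 and 0.01 in Eaf1 1:982, a change of −0.31 ± 0.06 (adjusted p = 0.0043). RPN1 was thus above the pool on each of the 4 control arrays and below it on each of the 6 mutant arrays. Its change stayed below 0 in each setting of the scanner values, from −0.54 to −0.28 in Epl1 1:380, from −0.45 to −0.27 in Epl1 1:485 and from −0.38 to −0.14 in the deletion.

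PRE10, which closes the alpha ring beside PRE5 and SCL1, had the lowest ratios of the members in Epl1 1:380. They were −0.61 and −0.45 in Epl1 1:380 and −0.53 and −0.51 in Epl1 1:485, against −0.19 and −0.27 in tagged Epl1. The changes were −0.30 ± 0.09 (adjusted p = 0.023) and −0.29 ± 0.09 (adjusted p = 0.029). PRE6, another alpha ring gene, stood at −0.37 and −0.39 in Epl1 1:380 and −0.38 and −0.26 in Epl1 1:485, against −0.11 and −0.15 in tagged Epl1, and did not pass (adjusted p = 0.13 and 0.24). The medians of the 7 alpha ring genes were −0.003 in Epl1 1:380 and −0.05 in Epl1 1:485, and PRE9 and PUP2 lay above the control in both.

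In the beta ring, 2 genes fell and 1 rose of 7 in each truncation, where 40.8% and 37% of all features passed. PRE7 stood at −0.38 and −0.44 in Epl1 1:380 and −0.39 and −0.53 in Epl1 1:485, against −0.07 and −0.24 in tagged Epl1, with changes of −0.26 ± 0.08 and −0.31 ± 0.08. PUP3 was at −0.37 on both arrays of Epl1 1:380 and at −0.45 and −0.32 in Epl1 1:485, against −0.15 on both arrays of tagged Epl1, with changes of −0.22 ± 0.06 and −0.24 ± 0.06. With normexp and loess, PUP3 stood at −0.11 in Epl1 1:380 (adjusted p = 0.46). Centred on added RNA, it stood at 0.04 in Epl1 1:380 and −0.15 in Epl1 1:485, beside 0.29 and 0.20 over all features. Neither PRE7 nor PUP3 carries a cutting site. PUP1, which does, stood at −0.05 and 0.05 in Epl1 1:380 and −0.02 and 0.03 in Epl1 1:485, against −0.21 and −0.19 in tagged Epl1. Its rise was 0.20 ± 0.06 (adjusted p = 0.020) in Epl1 1:380 and 0.21 ± 0.06 (adjusted p = 0.019) in Epl1 1:485, but with median centring of the scanner values it was −0.03 and −0.04. The other catalytic genes, PRE3 and PRE2, changed by 0.13 and −0.05 in Epl1 1:380 and by 0.08 and −0.05 in Epl1 1:485 and did not pass.

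Of the 18 members in the regulatory particle, 14 lay below the control in Epl1 1:380 and 15 in Epl1 1:485. So did 3077 and 3102 of all 6377 features. In each truncation 3 of the 18 passed, all lower, while 40.8% and 37% of all features passed, 19.1% and 17.6% lower. The 8 lid members leaned lowest as a group, with a median change of −0.14 in both. Of these, 7 and 8 lay below the control, although RPN12 alone passed. SEM1, read here with the proteasome-associated proteins, is not counted among them and changed by −0.05 and 0.02. RPN12 stood at −0.20 and −0.27 in Epl1 1:380 and −0.24 and −0.21 in Epl1 1:485, against −0.03 and −0.06 in tagged Epl1. RPN8, the partner of the deubiquitinase Rpn11, stood at −0.10 and −0.18 in Epl1 1:380 and −0.15 and −0.01 in Epl1 1:485, against −0.01 and 0.14 in tagged Epl1. Its changes of −0.21 and −0.15 did not pass (adjusted p = 0.060 and 0.17). With the replicate letter as a block, RPN7 (adjusted p = 0.017) and RPN8 (0.034) also passed in Epl1 1:380. RPN7 (0.022), RPN3 (0.04996) and RPT1 of the ATPase ring (0.030) then also passed in Epl1 1:485. Under that block 49.6% of all features passed in Epl1 1:380 and 46.6% in Epl1 1:485. RPN11 itself was nearly level, with changes of 0.02 and −0.001.

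Among the ATPases, RPT3 stood at −0.21 and −0.33 in Epl1 1:380 and −0.28 and −0.23 in Epl1 1:485, against −0.04 and −0.08 in tagged Epl1. Its changes were −0.21 ± 0.07 and −0.19 ± 0.07, but −0.04 and −0.02 from the scanner intensities with normexp and loess. On added RNA they were 0.05 and −0.02, beside 0.29 and 0.20 over all features. RPT6 and RPT2 lay above the control in both truncations, by 0.16 and 0.14 in Epl1 1:380 and by 0.09 and 0.12 in Epl1 1:485, and did not pass. RPN13, a ubiquitin receptor, stood at −0.10 and 0.04 in Epl1 1:380 and −0.07 and −0.04 in Epl1 1:485, against −0.23 and −0.17 in tagged Epl1, and its changes of 0.17 and 0.14 did not pass. RPN5 had the widest error of the lid genes (SE 0.11), at −0.43 and −0.44 in Epl1 1:380 and −0.28 and −0.44 in Epl1 1:485, against −0.11 and −0.35 in tagged Epl1.

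**Figure D3:**
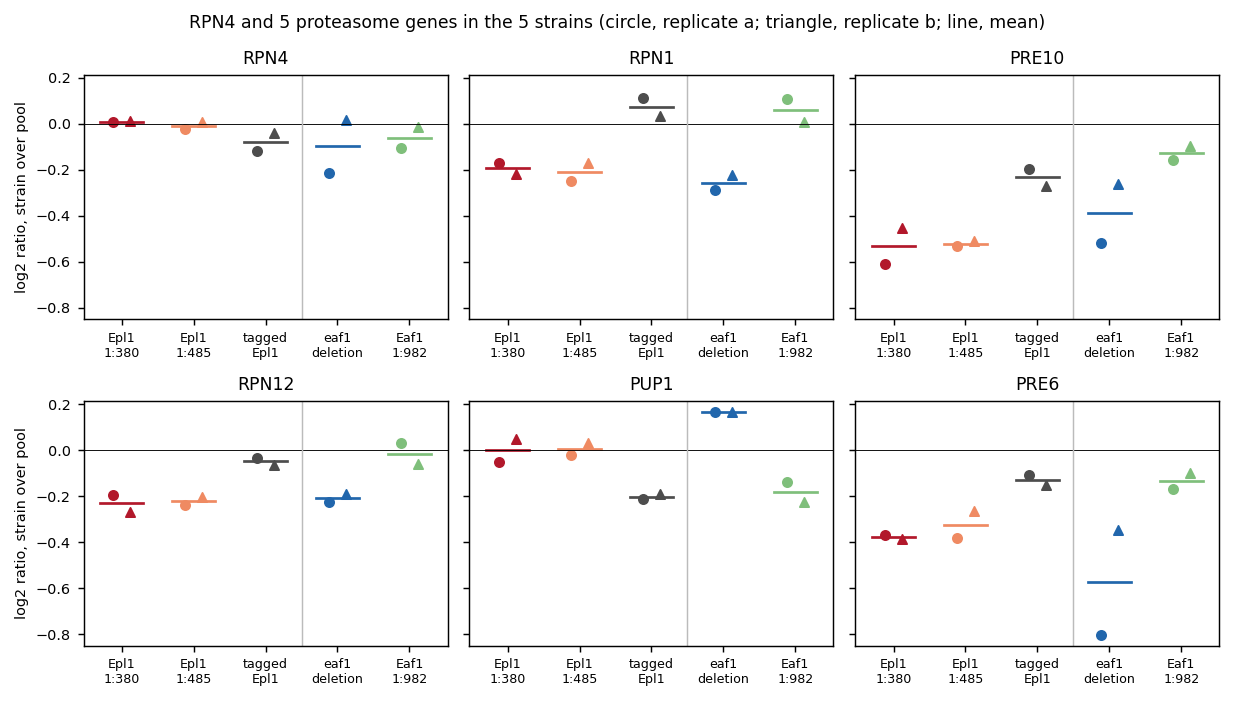
Log2 ratio to the pool (vertical axis) of RPN4 and 5 proteasome genes on each array of the 5 strains, with mutants left of their control. Lines mark the mean of 2 arrays. RPN1 lies above 0 in both controls and below 0 in the 3 mutants, PUP1 lies higher in each mutant than in its control, and RPN4 lies between −0.21 and 0.02 throughout.

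In the eaf1 deletion against Eaf1 1:982, 7 members fell and 4 rose, 33.3% of the 33, while 33.6% of all features passed, 17.8% higher and 15.8% lower. The genes that fell were PRE6 and PRE10 of the alpha ring, the ATPase RPT1, the lid genes RPN7, RPN8 and RPN12, and RPN1. The genes that rose were PUP1 and PRE4 of the beta ring, PRE5 of the alpha ring and the ubiquitin receptor RPN13. None passed with a fold over 1.7, as 2.68% of features did, and no 95% interval reached that fold, as 429 of all features did. Changes ran from −0.44 to 0.35 with a median of −0.04, beside 0.01 over all features, and 7 members (21.2%) changed by more than 0.25 against 27.4% of all features.

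Here too the count rested on single arrays. It was 5 without deletion replicate a (28.2% of all features) or without Eaf1 1:982 replicate a (23.1%), and 4 without Eaf1 1:982 replicate b (19.8%). It was 11 without deletion replicate b (32.1%) and 9 without any single array of the Epl1 strains (31.1% to 32.7%). PUP1, RPN1 and RPT1 passed whichever array was left out. With normexp and loess on the scanner intensities 1 member passed, PUP1, beside 11% of all features, and with the replicate letter as a block in that fit 8 did, beside 37.2%. All 11 kept their sign in each of the 4 scanner settings. How many of all called features kept their call or their sign in these ways was not counted.

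PUP1 had the smallest adjusted p of the members in the deletion. It stood at 0.17 on both deletion arrays, against −0.14 and −0.23 in Eaf1 1:982, a rise of 0.35 ± 0.06 (adjusted p = 0.0018 in limma). RPN13 stood at 0.05 and 0.25, against −0.12 and −0.27 in Eaf1 1:982, a rise of 0.35 ± 0.08 (adjusted p = 0.012). PRE4, a beta ring gene without a cutting site, was at 0.10 and 0.12, against −0.01 and −0.11 in Eaf1 1:982. PRE4 passed narrowly (adjusted p = 0.045) and lost its call without any 1 of 9 of the arrays.

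PRE6 had the largest change of the members and the widest replicate gap. Its ratios were −0.80 and −0.35 in the deletion, against −0.17 and −0.10 in Eaf1 1:982. The change was −0.44 ± 0.12 (adjusted p = 0.021), and −0.21 without deletion replicate a, where it did not pass. RPT1 stood at −0.44 and −0.32 in the deletion, against −0.08 and −0.06 in Eaf1 1:982, a change of −0.31 ± 0.06 (adjusted p = 0.0054). RPN7 stood at −0.40 and −0.23 in the deletion, against −0.08 and −0.01 in Eaf1 1:982, and RPN8 at −0.31 and −0.17, against 0.02 and −0.03. RPN12 stood at −0.23 and −0.19 in the deletion, against 0.03 and −0.06 in Eaf1 1:982, and PRE10 at −0.52 and −0.26, against −0.16 and −0.10. None of these genes overlapped between the strains, as for 54.5% of the members and 64.8% of all features.

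**Figure D4:**
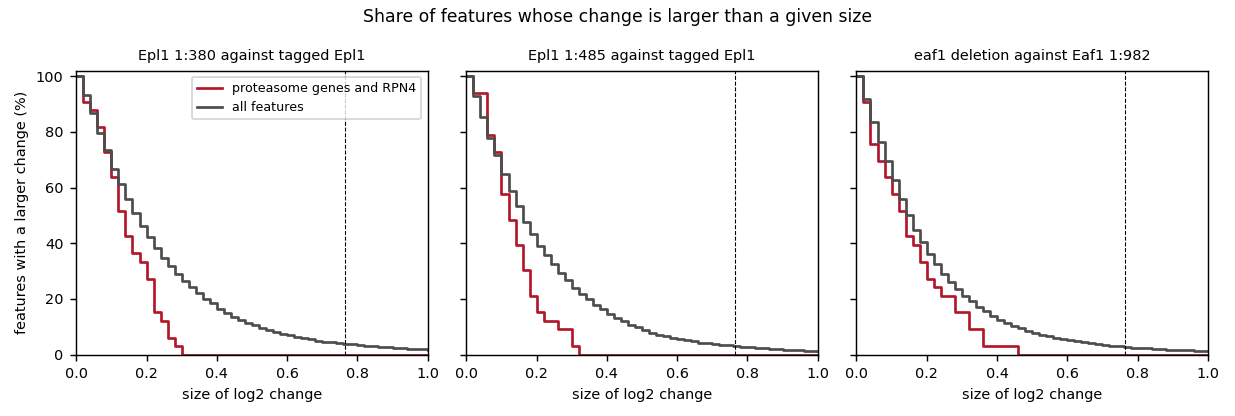
Share of features (vertical axis, percent) whose log2 change exceeds the size on the horizontal axis, for the proteasome genes with RPN4 and for all features, in 3 comparisons. The dashed line marks 1.7-fold. The curve of the members ends at 0.30 in Epl1 1:380, 0.31 in Epl1 1:485 and 0.44 in the deletion, while that of all features runs on.

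The deletion and the Epl1 truncations were compared with separate control arrays. PUP1 rose and PRE10, RPN12 and RPN1 fell in both Epl1 1:380 and the deletion. These 4 genes are 57.1% of those that passed in Epl1 1:380 and 36.4% of those that passed in the deletion. Over all features, calls shared in the same direction were 55.9% of those in Epl1 1:380 and 67.8% of those in the deletion. The difference tested was the mean effect of the truncations minus the effect of the deletion. That test was passed by 0 members beside 5.93% of all features. At an unadjusted p under 0.05 there were 3 members, beside 1364 of all 6377 features. PRE5 came nearest, with a difference of −0.27 (adjusted p = 0.090). With the replicate letter as a block its adjusted p was 0.042. PRE5 stood at −0.20 and −0.21 in Epl1 1:380 and −0.19 and −0.20 in Epl1 1:485, against −0.16 and −0.12 in tagged Epl1, and at −0.03 and 0.12 in the deletion, against −0.20 and −0.13 in Eaf1 1:982.

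Neither the 2 truncations nor the 2 controls differed detectably in these genes. In Epl1 1:380 against Epl1 1:485, 0 members and 0% of all features passed in limma. At an unadjusted p under 0.05 there were 0 members, beside 183 of all 6377 features. The members' largest difference was 0.08, for RPT1, and their 95% intervals ran from −0.33 to 0.24. In Eaf1 1:982 against tagged Epl1, 0 members passed beside 0.0627% of all features. At an unadjusted p under 0.05 there were 0 members, beside 218 of all 6377 features. The members' largest difference was 0.11, for PRE10, within intervals from −0.30 to 0.30.

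Other genes of the pathway were read from 4 lists. Of 10 assembly chaperones, 4 rose in Epl1 1:380 and 3 in Epl1 1:485, none fell there, and 1 fell in the deletion, where 40.8%, 37% and 33.6% of all features passed. TMA17, a chaperone of the ATPase ring, stood at 0.44 and 0.33 in Epl1 1:380 and 0.27 on both arrays of Epl1 1:485, against 0.06 and 0.07 in tagged Epl1. It rose by 0.32 ± 0.07 in Epl1 1:380 (adjusted p = 0.0073) and missed the limit in Epl1 1:485, with a change of 0.21 (adjusted p = 0.054). ADD66, a chaperone of the alpha ring, stood at 0.11 and 0.19 in Epl1 1:380 and 0.16 and 0.09 in Epl1 1:485, against −0.11 and −0.10 in tagged Epl1. Its rise of 0.26 ± 0.05 and 0.23 ± 0.05 came with scanner values of 0.37 and 0.32, which passed as well. PBA1, its partner, rose by 0.19 and 0.20, and HSM3, another chaperone of the ATPase ring, by 0.21 and 0.22. In the deletion, TMA17, ADD66, PBA1 and HSM3 changed by 0.14, 0.13, 0.09 and −0.01 and did not pass.

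Of 5 proteins that associate with the proteasome, 1 rose and 1 fell in Epl1 1:380, 1 rose and 2 fell in Epl1 1:485, and 2 fell in the deletion, beside the same 40.8%, 37% and 33.6% of all features. ECM29, which tethers the regulatory particle to the core, stood at −0.38 and −0.36 in Epl1 1:380 and −0.50 and −0.28 in Epl1 1:485, against 0.22 and −0.13 in tagged Epl1. In the deletion it stood at −0.47 and −0.42, against 0.00 and −0.06 in Eaf1 1:982. ECM29 fell by 0.41, 0.44 and 0.42 in Epl1 1:380, Epl1 1:485 and the deletion. BLM10, an alternative activator of the core, fell by 0.31 ± 0.07 in Epl1 1:485 (adjusted p = 0.0079), while its changes of −0.19 in Epl1 1:380 and 0.15 in the deletion did not pass. HUL5, a ubiquitin ligase of the proteasome, rose by 0.18 and 0.20 in the truncations. UBP6, a deubiquitinase bound to Rpn1, fell by 0.22 in the deletion (adjusted p = 0.048), a call lost without any 1 of 7 of the arrays.

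Among 15 ubiquitin, shuttle and Cdc48 genes, 4 rose and 3 fell in each truncation, and 3 rose and 2 fell in the deletion, again beside 40.8%, 37% and 33.6% of all features. RAD6, a ubiquitin conjugating enzyme, stood at 0.32 and 0.46 in Epl1 1:380 and 0.39 and 0.35 in Epl1 1:485, against 0.01 and −0.09 in tagged Epl1. It rose by 0.43 ± 0.08 (adjusted p = 0.0024) and 0.41 ± 0.08 (adjusted p = 0.0037). UBC4, a conjugating enzyme for short-lived and abnormal proteins, stood at 0.58 and 0.23 in the deletion, against −0.03 and −0.37 in Eaf1 1:982. It rose by 0.61 ± 0.15 (adjusted p = 0.012), a call lost without deletion replicate a or without Eaf1 1:982 replicate b. RAD23, a shuttle that carries ubiquitinated proteins to the proteasome, fell by 0.33 in Epl1 1:380, 0.34 in Epl1 1:485 and 0.30 in the deletion. The ubiquitin ligase UFD4 rose by 0.34 and 0.33 in the truncations.

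Of 6 genes that control RPN4 or its protein, 2 fell in each truncation, and 2 rose and 1 fell in the deletion, beside 40.8%, 37% and 33.6% of all features. Ubr2 is the ubiquitin ligase that, with Mub1, marks Rpn4 for breakdown, and Pdr1 and Yap1 are transcription factors that drive RPN4. UBR2 stood at −0.12 and −0.17 in Epl1 1:380 and −0.22 and −0.20 in Epl1 1:485, against 0.28 and 0.15 in tagged Epl1. It fell by 0.36 ± 0.07 (adjusted p = 0.0024) in Epl1 1:380 and by 0.43 ± 0.07 (adjusted p = 0.0011) in Epl1 1:485. In the deletion UBR2 stood at −0.06 and −0.19, against 0.13 and 0.12 in Eaf1 1:982, and fell by 0.25 ± 0.07 (adjusted p = 0.018). PDR1 stood at −0.18 and −0.27 in Epl1 1:380 and −0.23 and −0.26 in Epl1 1:485, against 0.13 and 0.01 in tagged Epl1, and fell by 0.30 and 0.32. In the deletion PDR1 changed by −0.11 and did not pass, while MUB1 rose by 0.22 and YAP1 by 0.18. Centred on added RNA, UBR2 stood at 0.01 in Epl1 1:380, −0.19 in Epl1 1:485 and 0.03 in the deletion, and PDR1 at 0.03 and −0.10 in the truncations. Under that scaling the median of all features was 0.29, 0.20 and 0.27 in Epl1 1:380, Epl1 1:485 and the deletion, and both genes stayed below those medians. How many of all called features keep their call whichever array is left out was not counted, so the next counts have no baseline. Of the calls in these 4 lists, 4 of 15 in Epl1 1:380 (ADD66, RAD6, UBR1 and UBR2), 2 of 15 in Epl1 1:485 (RAD6 and UBR2) and 1 of 11 in the deletion (UBI4) held whichever array was left out.

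**Figure D5:**
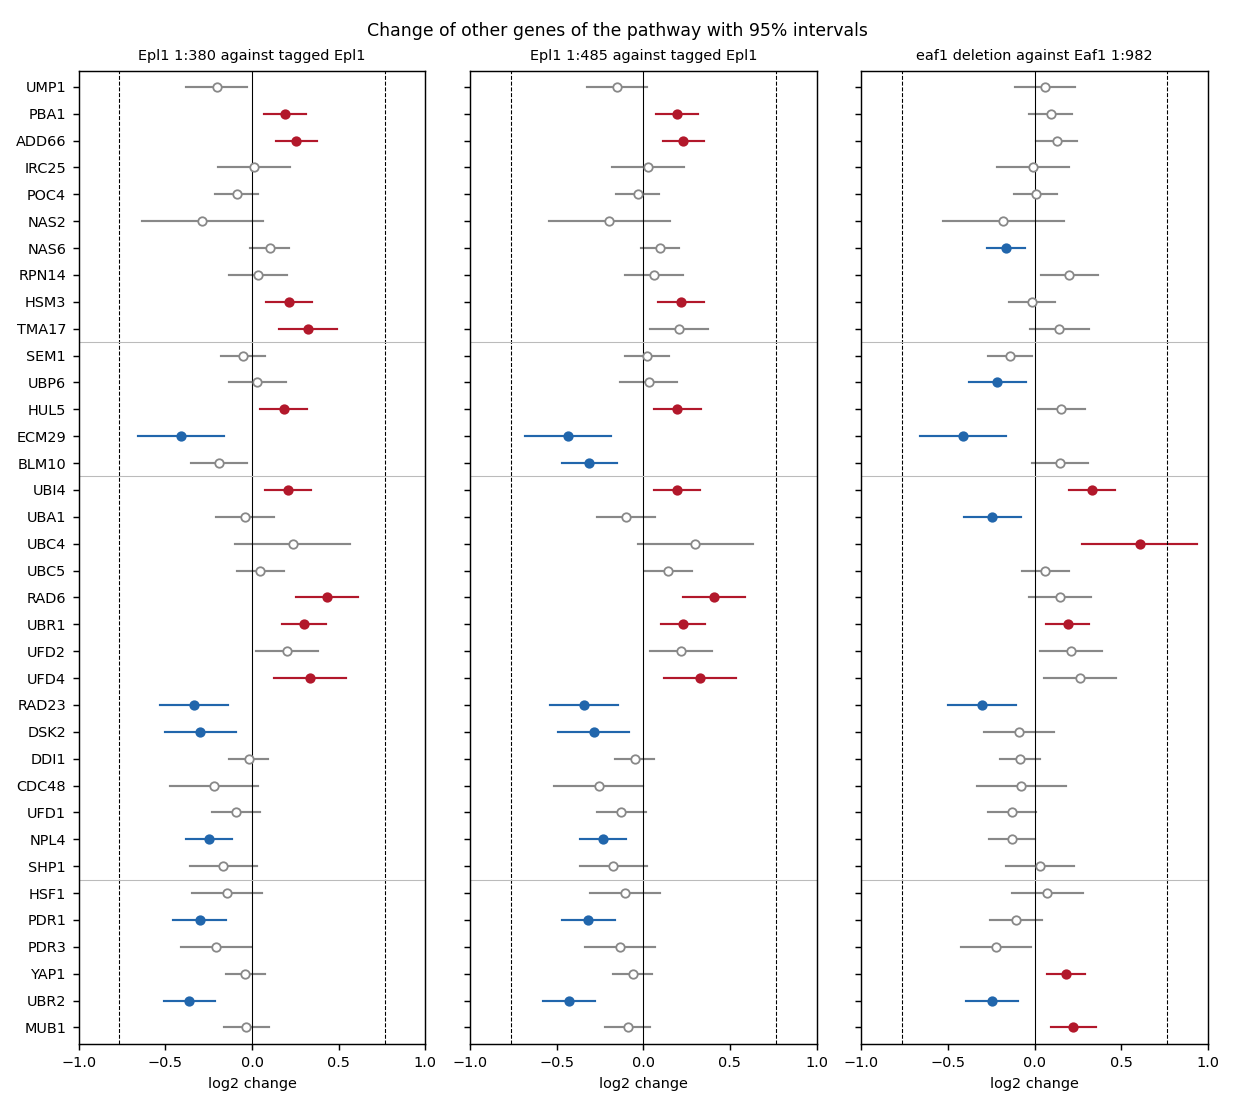
Change (log2, horizontal axis) of assembly chaperones, proteasome-associated proteins, ubiquitin, shuttle and Cdc48 genes and genes that control Rpn4 (rows, in this order) in 3 comparisons, with 95% confidence intervals from limma. Filled points passed, red for higher and blue for lower. Dashed lines mark 1.7-fold, which the interval of UBC4 in the deletion crosses.

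The place of the proteasome genes below or above their control also depended on how arrays were scaled. In the deposited values, the members' median changes were −0.07, −0.08 and −0.04 in Epl1 1:380, Epl1 1:485 and the deletion. From scanner intensities they were −0.06, −0.04 and −0.01 with normexp and loess, and −0.10, −0.08 and −0.06 with print-tip loess and no background correction. Median centring of scanner intensities gave −0.22, −0.21 and −0.13, beside 0.03 over all features in each. Centring on added RNA gave 0.04, −0.04 and 0.11, beside 0.29, 0.20 and 0.27 over all features. The members were brighter than most genes, and the part of signal strength in these shifts was not tested.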

How the data were processed

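Per the file headers, the authors deposited scanner files with signal and background intensity per spot and channel, and a matrix of log2 ratios of Cy5 over Cy3. Per the deposited protocol text, the authors normalised by print-tip loess (span 0.4) without subtracting background, left absent spots and spots over 32768 out of the curve, and corrected gene-specific dye bias. Matrix rows were joined to spots by position (15552 spots, of which 2776 were controls). Over the 12776 gene spots they correlated at 0.722 to 0.992 per array with scanner ratios after print-tip loess. Matrix values served as the main values, replicate a was multiplied by -1, and spots were averaged to 6377 features: 5315 named genes and 1062 unnamed reporters. A model with 1 coefficient per strain was fitted over all 10 arrays in R 4.3.3 by lmFit and eBayes of limma 3.58.1 (5 residual and 3.998 prior degrees of freedom), with Benjamini-Hochberg adjustment over all features in each of 6 comparisons. The scripts were tested on simulated data. The number of arrays limits the precision.

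All 33 members may be named. Those with array values are RPN4, the 2 members of each role with the largest change in each main comparison, and PRE5. Of these, RPT6 is given by its changes only. PRE5, and other members given by their changes only, were chosen after their values were seen. Of each pathway list, up to 4 genes that passed were named. The members and lists were chosen with earlier results of these data known. Alternatives were scanner intensities under 4 normalisations, brighter features, the replicate letter as a block, other moderation, a fit of only the strains compared, other call limits and each array left out in turn. Promoter sequence was not analysed here, and no coordinates are given since the files name no build. Figures were drawn with Python 3.11.15 and matplotlib 3.10.9.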

Additional observations from a re-analysis of the deposited data

Results flagged for a closer look

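The test of the difference between the mean effect of the Epl1 truncations and the effect of the eaf1 deletion was passed by no proteasome gene and by 3 of the other genes examined. These were 1 of 10 assembly chaperones, 1 of 5 proteasome-associated proteins and 1 of the 2 genes that check the labels. None of the 15 ubiquitin, shuttle and Cdc48 genes and none of the 6 genes that control RPN4 or its protein passed. Over all features, 5.93% passed. EAF1 differed by 2.395 ± 0.118 (SE, log2, adjusted p = 5.2e-05 in limma), with changes of −0.32 and −0.30 in the truncations and −2.71 in the deletion. EAF1 is the gene removed in the deletion, so this difference was set by the strain and serves only to check the labels. BLM10 differed by -0.399 ± 0.0934 (adjusted p = 0.040), with changes of −0.19 and −0.31 in Epl1 1:380 and Epl1 1:485 and 0.15 in the deletion. NAS6, a chaperone of the ATPase ring, differed by 0.264 ± 0.0652 (adjusted p = 0.049), with changes of 0.10 in both truncations and −0.16 in the deletion. With 2 arrays per strain, no single array could be tested for standing apart.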

How the results depend on the processing

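Values are given for Epl1 1:380 against tagged Epl1, Epl1 1:485 against tagged Epl1 and the eaf1 deletion against Eaf1 1:982, in this order, unless named. In the main fit 7, 7 and 11 members passed, among 2601, 2361 and 2145 features. With normexp and loess on scanner intensities 0, 0 and 1 passed (1162, 982 and 703 features), and with print-tip loess and no background correction 1, 2 and 4 (1293, 1121 and 879). With median centring 0, 0 and 0 passed (161, 74 and 55), and with centring on added RNA 0, 0 and 0 (39, 19 and 0). Neither the limit of 1.7-fold nor the study's limits (unadjusted p under 0.01 and 1.7-fold) left a member, among 243, 186 and 171 or 242, 184 and 171 features. When only the brighter 3188 features were tested, 7, 6 and 10 members passed, among 1400, 1286 and 1213 features (43.9%, 40.3% and 38%). With only the strains compared, 9, 9 and 4 members passed, among 2596, 2597 and 1500 features (40.7%, 40.7% and 23.5%). The cause of the differences between settings was not tested.

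The letters a and b also mark the dye orientation. Deviations of arrays with the same letter correlated at 0.29 to 0.56 over 10 pairs of strains, but with 2 letters this does not show that the letters pair cultures. With the letter as a block 9, 10 and 12 members passed, among 3160, 2971 and 2702 features (49.6%, 46.6% and 42.4%), and 1, PRE5, in the truncation effect minus the deletion effect, among 721 features against 378 without it. For the scanner values that block was chosen after seeing the data. With it, normexp and loess gave 7, 8 and 8 members, beside 46.5%, 44.3% and 37.2% of all features. Print-tip loess gave 12, 11 and 12, beside 48.6%, 45.9% and 40.6%, with 1 in the difference of effects (693 features).

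Leaving out 1 array gave 1 to 11, 0 to 9 and 4 to 11 members, 0 to 1 in the difference of effects, and 1504 to 2636 features in Epl1 1:485, 1263 to 2083 in the deletion and 127 to 586 in the difference. The members' median then ran from −0.078 to −0.018 in the deletion and from −0.036 to 0.035 in the difference. Between Epl1 1:380 and Epl1 1:485, 0 to 3 features passed, and between Eaf1 1:982 and tagged Epl1 0 to 4, against 4 in the main fit, 0 in the scanner settings and 15, 10 and 13 with the block on matrix, normexp and print-tip values. In the difference of effects the scanner settings gave 27 and 59 features with loess and 0 with centring, the brighter features 120, and the limits of fold 69 and 70.

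The members' median was −0.22, −0.21 and −0.13 with median centring and 0.0407, −0.0444 and 0.112 on added RNA. It was −0.035 in Epl1 1:485 with normexp and loess, with or without the block. The difference of effects had a median of −0.0806 with median centring and −0.109 on added RNA, the 2 truncations differed by 0.0732 and the 2 controls by −0.0537 on added RNA. RPN4 turned to −0.0346 and −0.0134 in the truncations with median centring, beside 0.03 over all features in both. In the deletion RPN4 turned to 0.10 on added RNA, beside 0.27 over all features. Between the truncations RPN4 turned to −0.0212 with median centring and −0.0136 with normexp and loess, with or without the block. Leaving out an array, RPN4 ran from −0.153 to 0.0775 in the deletion and from −0.0253 to 0.0642 between the controls.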
